A study of Mus musculus with 6 samples.

Results

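Glra2, Glra3 and Glrb encode the alpha2, alpha3 and beta subunits of the glycine receptor, and Gphn encodes gephyrin, the scaffold protein that holds these receptors at synapses. These 4 genes, of 15703 analysed, were chosen by name with their values in wild-type and mutant cortex already known. Their differences between the groups are therefore given as descriptions, with no test. The remaining alpha subunit genes, Glra1 and Glra4, were not analysed here.

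RNA was sequenced from whole neocortex of newborn C57BL/6 mice (postnatal day 0) in a study of what the transcription factor Tcf4 does for the positioning of cortical projection neurons. The 3 control animals were labelled WT, without a statement of whether they carried a floxed allele or Cre. The 3 conditional knockouts (cKO) had the genotype Tcf4 f/f; Emx1Cre/+, in which Cre, expressed from Emx1, recombines the floxed Tcf4 alleles. Emx1 marks the dorsal progenitor cells that give rise to projection neurons and much of the cortical glia, whereas interneurons, microglia and vessel cells come from other sources, and all of these were in the dissected tissue. The sample titles carry 6 different animal codes, so libraries of a group were taken as different animals, and p-values measure the spread between them.

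The glycine receptor is a chloride channel made of 5 subunits. Alpha subunits bind the ligand, which can be glycine, taurine or beta-alanine, and can form channels by themselves, while the beta subunit carries the loop that binds gephyrin. In the developing neocortex alpha2 is the main alpha subunit, the receptors lie largely outside synapses and taurine is a ligand. Young cortical neurons hold much chloride, so that opening of the channel can depolarise them.

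Both alpha subunit genes are shown first as sequence, because reads from such close relatives could be assigned to the wrong gene. The coding sequences of Glra2 (1359 bases) and Glra3 (1443 bases) in GENCODE M21 were 74.9% identical over 1337 aligned positions. Their longest shared run was 26 bases, coding bases 772 to 797 of Glra2 and 817 to 842 of Glra3. A window of 90 bases around this run, which lies within 1 exon in each gene, is printed here from the mm10 genome, 5′ to 3′ on the coding strand. Capitals mark the 16 positions at which the genes differ. The Glra2 stretch is chrX:165252321-165252410 on the minus strand and the Glra3 stretch is chr8:56089008-56089097 on the plus strand.
Glra2: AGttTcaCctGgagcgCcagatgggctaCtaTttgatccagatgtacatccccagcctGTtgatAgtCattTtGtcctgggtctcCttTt
Glra3: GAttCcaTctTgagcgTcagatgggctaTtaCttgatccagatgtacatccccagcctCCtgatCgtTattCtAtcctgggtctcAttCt
The run without capitals in the middle is the longest stretch in which a read could not tell the genes apart. Glrb was more distant, with 63.7% identity to Glra2 and a longest shared run of 15 bases, and 62.5% identity to Glra3 and a run of 14 bases.

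The start regions of the alpha subunit genes are shown because both genes had higher values in the mutant, and because the Tcf4 protein is a basic helix-loop-helix factor of the class that binds the E-box, CANNTG. The 250 bases before the RefSeq start (GRCm38.p6) are chrX:165327394-165327643 on the minus strand for Glra2 and chr8:55940168-55940417 on the plus strand for Glra3. Capitals mark matches to CANNTG, which reads as CANNTG on both strands.
Glra2: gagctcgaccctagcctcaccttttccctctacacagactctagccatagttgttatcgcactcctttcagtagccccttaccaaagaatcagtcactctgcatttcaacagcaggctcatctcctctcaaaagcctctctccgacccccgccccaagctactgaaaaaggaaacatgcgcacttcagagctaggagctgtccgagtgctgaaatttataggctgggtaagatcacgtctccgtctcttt
Glra3: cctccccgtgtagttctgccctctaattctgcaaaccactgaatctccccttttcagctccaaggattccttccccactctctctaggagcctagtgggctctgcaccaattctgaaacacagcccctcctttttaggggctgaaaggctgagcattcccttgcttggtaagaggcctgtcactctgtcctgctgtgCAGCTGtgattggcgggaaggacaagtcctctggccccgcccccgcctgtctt
The Glra2 window held 0 matches, and the Glra3 window held 1, the sequence CAGCTG beginning 53 bases before the start. Among all RefSeq promoters of the same length, 66.0% held at least 1 CANNTG and 12.8% held CAGCTG. The Glrb window held 1 match, CAGTTG, beginning 33 bases before its start, and the Gphn window held 0. Gphn had the most GC-rich window of these genes at 77.2%, against 50.4% for Glra2, 56% for Glra3, 62.4% for Glrb and a median of 52% over all promoters. The Gphn window, chr12:78226405-78226654 on the plus strand, precedes the RefSeq start only. It lies inside the GENCODE span of Gphn, which begins at 78226379. These letters describe a short window only, and no binding was measured.

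Of the study's libraries as a whole, recovered library sizes were 23.2 to 26.1 M (units of 1e6 reads). Tcf4 itself had 71.2, 75.6 and 75.3 FPKM in WT 1, 2 and 3 and 56.5, 60.6 and 55.3 FPKM in cKO 1, 2 and 3, lower in every mutant library (log2 difference -0.36, limma adjusted p = 0.00411). Gene-level values include exons outside a floxed part, so the fall does not measure how many cells recombined. FPKM divides the fragments of a gene by its exon length and by library size, so levels can be set side by side between genes. Neocortical identity was checked on markers: Neurod6, a gene of cortical excitatory neurons, ranged from 272 to 315 FPKM over the controls and from 326 to 370 FPKM over the mutants, and Tbr1, a transcription factor of deep-layer neurons, was present in every library. The labels give no sex. The Y-linked gene Ddx3y reached 16.1 FPKM in library WT 1, 14.7 FPKM in library cKO 3 and at most 0.025 FPKM in the other 4 libraries, where Xist was at 127 to 158 FPKM, so each group held 1 library with Y-linked reads.

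Glra2 had the highest level of the 4 genes and the largest difference between the groups in FPKM. Libraries WT 1, 2 and 3 had 25.8, 25.6 and 24.0 FPKM, and libraries cKO 1, 2 and 3 had 63.7, 64.4 and 61.0 FPKM. Every mutant library lay far above every control library, and the spread within a group was small. The mean was 25.1 ± 1.01 FPKM (SD, n = 3) in WT and 63.0 ± 1.8 FPKM (SD, n = 3) in cKO, 2.51-fold higher, a difference of 1.29 on the log2(FPKM + 1) scale. By that difference Glra2 took rank 10 of the 15703 genes ordered from the largest increase. By level it moved from percentile 86.9 of the analysed genes in WT to percentile 96.4 in cKO, which puts it among the abundant transcripts of the mutant cortex. The gene (ENSMUSG00000018589) is on chromosome X, 165129017 to 165327393, minus strand, mm10, with 1 annotated transcript in 9 exons. The annotation release used in the counting is not given, and in GENCODE M21 no gene overlaps Glra2 on either strand. Because it is X-linked, its level was also read by sex: the libraries with Y-linked reads had 25.8 FPKM (WT 1) and 61.0 FPKM (cKO 3), close to the other libraries of their group, and the log2 difference over the remaining 4 libraries was 1.33.

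Glra3, the alpha3 subunit gene, was close to the detection limit in WT and low in cKO. It had 0.058, 0.028 and 0.056 FPKM in WT 1, 2 and 3 and 0.473, 0.366 and 0.450 FPKM in cKO 1, 2 and 3. All mutant libraries lay above all control libraries. The means were 0.0473 ± 0.0168 FPKM in WT and 0.430 ± 0.0563 FPKM in cKO (SD, n = 3), 9.08-fold higher as a ratio of means. On the log2(FPKM + 1) scale, which compresses low values, the difference was 0.45. Recovered reads were 14, 6 and 12 in the controls, with exact 95% Poisson intervals of 7.65 to 23.5, 2.2 to 13.1 and 6.2 to 21, and 103, 82 and 96 in the mutants, with intervals of 84.1 to 125, 65.2 to 102 and 77.8 to 117. The intervals cover counting error only, not the spread between animals, and are no test of the groups. The ratio rests on 32 reads summed over the controls against 281 over the mutants, so its size is less certain than that of Glra2.

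The presence of Glra3 in the table depends on its mutant level. Its mean in WT was 0.436 CPM (counts per 1e6 reads), below the lowest mean over the 6 libraries of any listed gene, 0.511 CPM, and no listed gene had a mean over the 6 libraries as low as that WT value. With both groups at the WT level it would have lain below every listed gene, and a gene that enters only through the group where it is high has to differ between groups. Glra3 (ENSMUSG00000038257) is on chromosome 8, 55940460 to 56130070, plus strand, mm10, with 2 transcripts in 11 exon blocks. It shares no exon bases with another gene, and its level was 135 to 176 times below that of Glra2 in the mutant libraries and 428 to 915 times below in the controls.

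Glrb, the beta subunit gene, did not separate the groups. The controls had 11.8, 13.5 and 11.2 FPKM in replicates 1, 2 and 3, and the mutants 11.9, 13.9 and 14.6 FPKM. WT 2 lay above cKO 1, so the groups overlapped. The mean was 12.2 ± 1.18 FPKM in WT and 13.5 ± 1.37 FPKM in cKO (SD, n = 3), a ratio of 1.11 and a log2 difference of 0.14. Between 1225 and 1577 recovered reads lay behind each value. Glrb (ENSMUSG00000028020) is on chromosome 3, 80843599 to 80913660, minus strand, mm10, with 6 transcripts in 11 exon blocks, and no annotated gene overlaps it.

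Gphn, the gephyrin gene, was the only one of these genes with lower values in the mutant. It had 19.6, 19.6 and 19.6 FPKM in WT 1, 2 and 3 and 16.3, 15.7 and 15.7 FPKM in cKO 1, 2 and 3. The control libraries were nearly identical and every mutant library was below them. The mean was 19.6 ± 0.0418 FPKM in WT and 15.9 ± 0.320 FPKM in cKO (SD, n = 3), 1.23-fold lower, a log2 difference of -0.28. Its level moved from percentile 82.7 to percentile 78.0 of the analysed genes. Gephyrin also completes the synthesis of the molybdenum cofactor, a second role that does not depend on synapses. Gphn (ENSMUSG00000047454) is on chromosome 12, 78226379 to 78684772, plus strand, mm10, with 3 transcripts in 25 exon blocks. Of its exon bases, 147 (3.92%) are shared with Gm48226, a noncoding gene on the opposite strand that was not analysed here. The strand setting of the counting is not given in the sources used here, so reads from those bases cannot be assigned to one or the other.

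Across the 4 genes, 3 had groups that did not overlap. Of all 15703 genes, 37.3% had groups that did not overlap, 7.22% were called higher in cKO and 8.59% were called lower at a limma adjusted p under 0.05, together 15.8%. Nothing is read from the members' count, because the members were selected on values of this contrast. In bulk tissue, fewer cells of a type and less RNA per cell cannot be told apart, for these genes or for any gene named here.

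**Figure D1:**
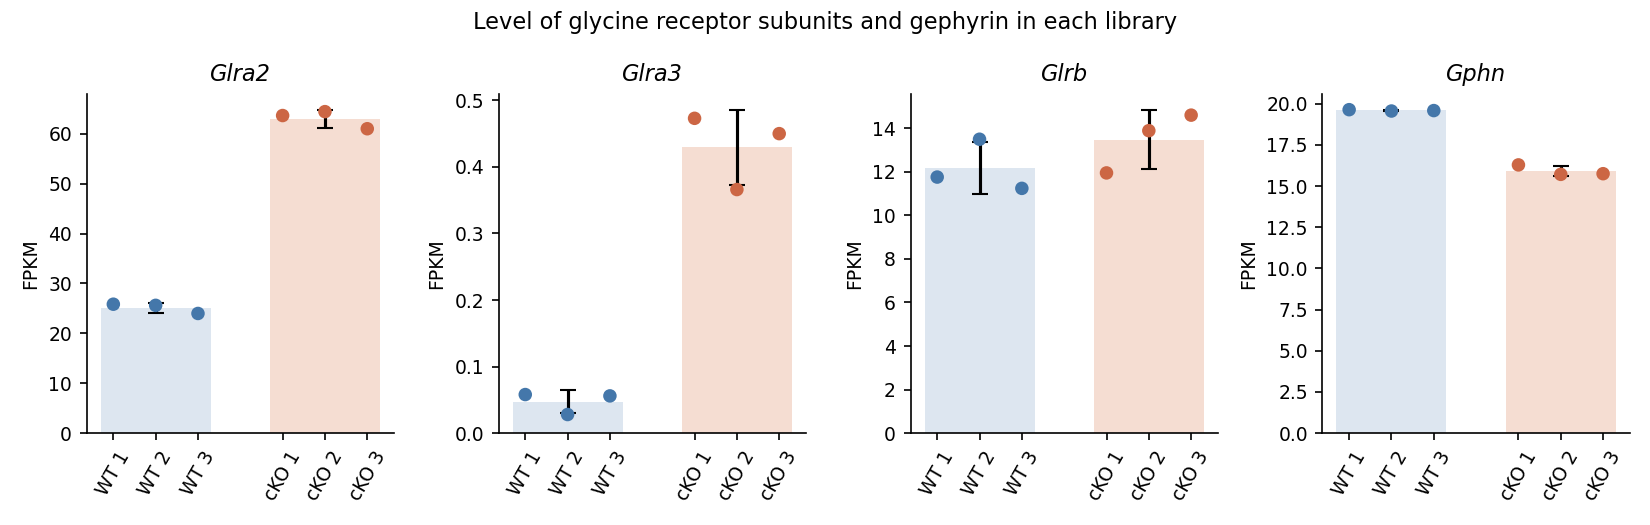
Level (FPKM, linear axes from 0, a separate axis for each gene) of Glra2, Glra3, Glrb and Gphn in WT 1 to 3 (blue) and cKO 1 to 3 (orange). Points are libraries, bars are group means and error bars are SD (n = 3). Glra2 and Glra3 points in cKO all lie above WT, Gphn points in cKO all lie below WT, and the Glrb points overlap.

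The order of the levels was the same in both groups. In WT it ran Glra2 (25.1 FPKM), Gphn (19.6), Glrb (12.2) and Glra3 (0.0473), and in cKO Glra2 (63.0 FPKM), Gphn (15.9), Glrb (13.5) and Glra3 (0.430). In neither group did libraries of neighbours in this order overlap. Gphn and Glrb came closest in the mutant, where the highest Glrb library had 14.6 FPKM and the lowest Gphn library 15.7 FPKM.

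The proportions between the transcripts were taken within each library, so that library size does not enter. Glra2 over Glrb was 2.20, 1.90 and 2.14 in WT 1, 2 and 3 and 5.33, 4.64 and 4.18 in cKO 1, 2 and 3. The mean ratio was 2.08 ± 0.158 in WT and 4.72 ± 0.578 in cKO (SD, n = 3). In all mutant libraries the FPKM of Glra2 was thus more than 4 times that of Glrb, against about 2 times in the controls. Summed over Glra2, Glra3 and Glrb, receptor subunit transcripts came to 37.4 ± 1.95 FPKM per control library and 76.9 ± 1.51 FPKM per mutant library. The share of Glrb in that sum was 32.5 ± 1.73% in WT and 17.5 ± 1.75% in cKO, and the share of Glra3 was 0.128 ± 0.0490% in WT and 0.560 ± 0.0831% in cKO. The alpha3 subunit thus stayed under 1% of the summed transcripts in every library.

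Gephyrin transcripts were compared with those of its receptor partner in the same way. Gphn over Glrb was 1.67, 1.45 and 1.74 in the controls and 1.36, 1.13 and 1.08 in the mutants, with means of 1.62 ± 0.153 and 1.19 ± 0.151 (SD, n = 3). The ranges did not overlap, but WT 2 and cKO 1 lay close together. Glra2 over Gphn was 1.32, 1.31 and 1.23 in the controls and 3.91, 4.10 and 3.87 in the mutants, with means of 1.28 ± 0.0509 and 3.96 ± 0.123 (SD, n = 3). These ratios carry the chosen values forward and are descriptions. They are of transcripts, and subunit proteins and channels were not measured.

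**Figure D2:**
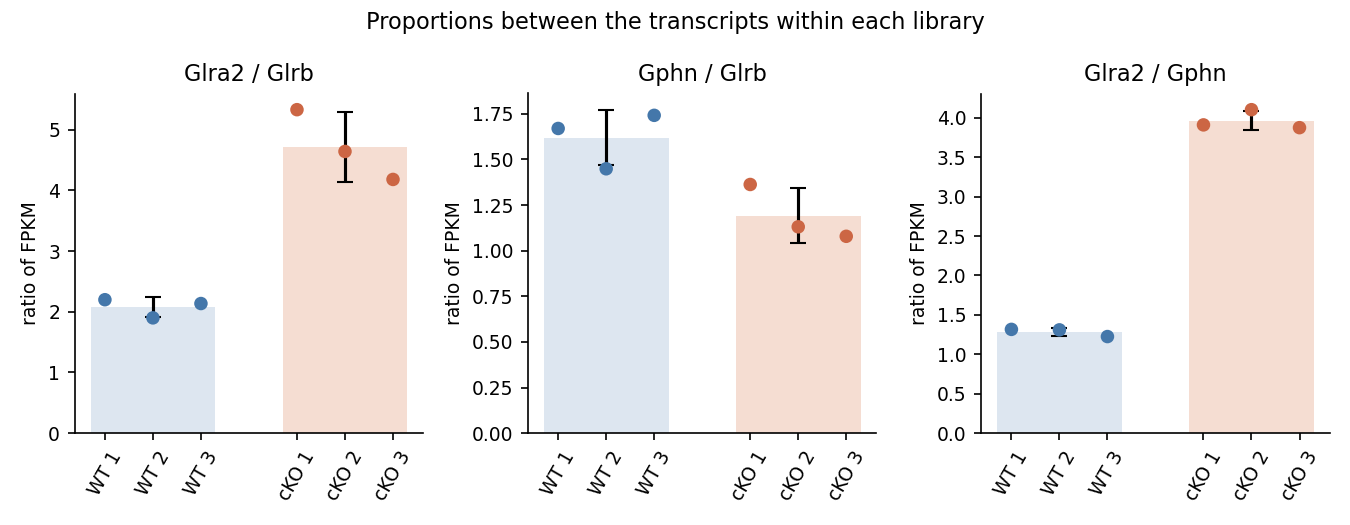
Ratio of FPKM within each library (linear axes from 0) for Glra2 over Glrb, Gphn over Glrb and Glra2 over Gphn, in WT 1 to 3 (blue) and cKO 1 to 3 (orange). Points are libraries, bars are means and error bars SD (n = 3); mutant points lie above the controls for Glra2 over Glrb and Glra2 over Gphn, and below them for Gphn over Glrb.

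**Figure D3:**
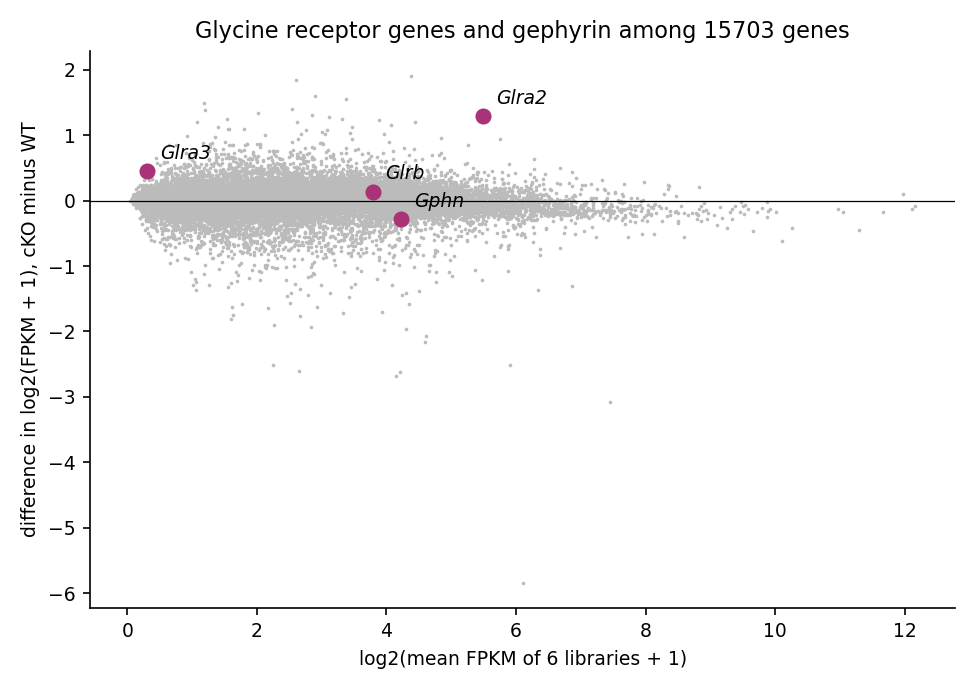
Difference between cKO and WT in log2(FPKM + 1), vertical axis, against log2(mean FPKM of the 6 libraries + 1), horizontal axis, for 15703 genes (grey), with the 4 genes in purple. Glra2 stands at 1.29, above nearly all genes of its level, Glra3 at 0.45 at the low end of the axis, Glrb at 0.14 and Gphn at -0.28 within the cloud.

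Genes whose pattern over the 6 libraries was most like each member were found by the root-mean-square difference in log2(FPKM + 1), each gene centred on its own mean, among genes with a mean of at least 1 FPKM. For Glra2, whose own values lay 0.65 (root mean square) from their mean, the nearest 5 were Ptprt, Deptor, Cxxc4, Abca8a and Fam135b, at differences of 0.0673, 0.0787, 0.0819, 0.101 and 0.101. Ptprt, a receptor tyrosine phosphatase, had 12.2 ± 0.805 FPKM in WT and 29.4 ± 0.939 in cKO. Cxxc4, an inhibitor of Wnt signalling, had 7.88 ± 0.816 and 19.8 ± 0.854 FPKM. Deptor, an inhibitor of mTOR, had 0.267 ± 0.0192 and 2.31 ± 0.209 FPKM, so its likeness is in the log2(FPKM + 1) difference, not in the ratio of means. The measure is over 6 libraries in 2 groups, and such likeness mostly restates a shared difference between the groups.

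For Glra3 the nearest 3 were Zfp658, Ube2ql1 and Rnpc3, at 0.0291, 0.0333 and 0.0342, all far more abundant than Glra3 itself and 1.36 to 1.43 times as high in cKO. Glrb was closest to Cep290, a protein of the cilium base, Ipo7, a nuclear import receptor, and Yae1d1, at 0.0228, 0.0237 and 0.0288. Like Glrb, each of these had its lowest mutant value in cKO 1 and its highest control value in WT 2. That restates the measure by which they were chosen. Gphn was closest to Atic, an enzyme of purine synthesis, Camk2g, a calcium-dependent kinase, and Ola1, at 0.0222, 0.0264 and 0.0273.

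Genes within 500 kb of each member were listed by position. Glra2 had 2 analysed neighbours, of which Fancb, a DNA repair gene, rose from 1.35 ± 0.244 to 2.23 ± 0.150 FPKM (limma adjusted p = 0.0113), while Mospd2 did not pass (2.83 ± 0.361 and 3.6 ± 0.0395 FPKM, adjusted p = 0.0682). Of 3 neighbours of Glra3, Hpgd, an enzyme of prostaglandin breakdown, rose from 0.876 ± 0.155 to 1.90 ± 0.173 FPKM (limma adjusted p = 0.00176). Of 2 neighbours of Glrb, the AMPA receptor subunit gene Gria2, 40.8 kb away, rose from 69.8 ± 4.48 to 86.9 ± 7.07 FPKM (limma adjusted p = 0.0229). Of 9 neighbours of Gphn, the arginase gene Arg2 fell from 5.40 ± 0.631 to 3.14 ± 0.132 FPKM (limma adjusted p = 0.00164), while 8 did not pass. The numbers of neighbours are too small for a statement about any region.

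Ligand supply was described on genes of glycine and taurine transport. Of 12 genes, 8 were analysed and 0 passed the test in either direction, with a median log2 difference of -0.03 beside 0.00 over all genes. The most abundant were Slc38a2, a transporter of small neutral amino acids, at 56.7 ± 6.69 FPKM in WT and 67.1 ± 1.23 in cKO (limma adjusted p = 0.0693), and Slc6a6, the taurine transporter, at 24.4 ± 2.02 and 21.1 ± 0.653 FPKM (adjusted p = 0.0903). At an unadjusted limma p under 0.05, 2 were higher and 2 lower, and limma-voom on recovered reads called 1 higher and 0 lower. Without WT 2, 1 gene passed as higher, and without WT 3, 1 passed as lower. Of 16 genes of glycine and taurine synthesis and breakdown, 13 were analysed, 1 rose, 0 fell and 12 did not pass, with a median of -0.11 (2 lower at an unadjusted limma p under 0.05, and 2 called lower by limma-voom). The gene that rose was Amt, a part of the glycine cleavage system, from 8.35 ± 0.826 to 11.5 ± 1.03 FPKM (limma adjusted p = 0.0107, and 0.0505 without WT 1). Its partner in the cleavage system, Gldc, named after its value was seen, had 4.00 ± 0.432 FPKM in WT and 3.16 ± 0.315 in cKO (adjusted p = 0.0839).

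Most genes of gephyrin partners and of the inhibitory postsynapse did not pass the test. Of 34 genes analysed of 35, 1 rose, 6 fell and 27 did not pass, and the median log2 difference was 0.01. At an unadjusted limma p under 0.05, 5 were higher and 9 lower, and limma-voom called 5 higher and 7 lower. Mdga1, a membrane protein that binds neuroligin-2 and limits inhibitory synapses, fell from 19.2 ± 1.19 to 7.82 ± 0.718 FPKM (limma adjusted p = 1.35e-05). Sema4d, which promotes the formation of inhibitory synapses, fell from 7.07 ± 0.825 to 4.03 ± 0.383 FPKM (adjusted p = 0.00143). Slitrk3, the adhesion protein that organises inhibitory synapses, rose from 8.30 ± 0.897 to 12.8 ± 0.547 FPKM (adjusted p = 0.00173). Rhoq, the small GTPase TC10, fell from 5.05 ± 0.480 to 3.30 ± 0.136 FPKM (adjusted p = 0.00443), and Akap5, a kinase anchoring protein, from 4.29 ± 0.128 to 2.90 ± 0.289 FPKM (adjusted p = 0.00714). Ptprd fell from 27.8 ± 0.374 to 22.4 ± 2.26 FPKM (adjusted p = 0.0257), a call lost without any one of WT 1, WT 3, cKO 2 or cKO 3, with a highest adjusted p of 0.0783. Pfn1, profilin, which binds gephyrin, fell from 47.5 ± 1.56 to 40.8 ± 2.62 FPKM (adjusted p = 0.0491), a call lost without any one of 5 libraries, all but cKO 3, with a highest adjusted p of 0.159. With the library of Y-linked reads left out of each group, 2 genes of the list were called lower, and without WT 2, 3 were called higher.

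Nlgn2, neuroligin-2, an adhesion protein of inhibitory synapses that binds gephyrin, had 50.2 ± 4.68 FPKM in WT and 53.6 ± 3.92 in cKO, a difference that missed the threshold (limma adjusted p = 0.453). It was named after its values were seen. For the enzymatic role of gephyrin, 6 of 12 genes of molybdenum cofactor synthesis and use were analysed, of which 1 rose, 1 fell and 4 did not pass, with a median of -0.06. Mocs2, which acts just before gephyrin in the synthesis, fell from 5.04 ± 0.197 to 4.09 ± 0.0853 FPKM (limma adjusted p = 0.0479), a call that was lost without any one of the 6 libraries, with adjusted p up to 0.131.

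**Figure D4:**
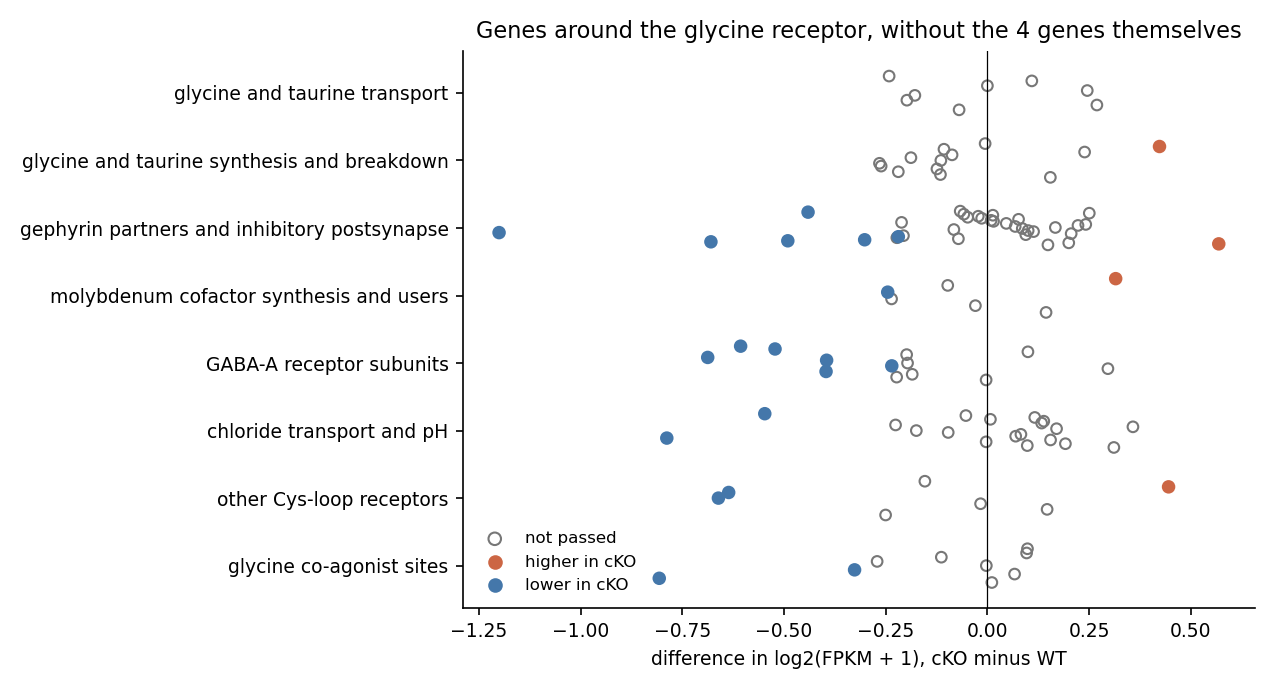
Difference between cKO and WT in log2(FPKM + 1), horizontal axis, for the genes of 8 lists around the glycine receptor, without the 4 members (1 point a gene, vertical scatter within a list only separates points). Filled points passed the test (orange higher, blue lower in cKO) and open points did not; the GABA-A list has 6 blue and 0 orange points, and the transport list has no filled point.

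GABA-A receptor subunits, the other gephyrin-bound chloride channels, had lower transcript levels where they passed the test. Of 13 genes analysed of 16, 0 rose, 6 fell and 7 did not pass, with a median log2 difference of -0.22. In the higher direction, 1 gene had an unadjusted limma p under 0.05 and limma-voom called 0. Gabra5, a largely extrasynaptic alpha subunit, fell from 20.5 ± 1.36 to 12.4 ± 0.973 FPKM (limma adjusted p = 0.000386). Gabra2, an alpha subunit that binds gephyrin, fell from 31.4 ± 2.70 to 21.6 ± 3.14 FPKM (adjusted p = 0.00757). Gabrb1 (8.25 ± 1.07 to 6.01 ± 0.341 FPKM, adjusted p = 0.0187) and Gabrg1 (1.88 ± 0.246 to 1.19 ± 0.160 FPKM, adjusted p = 0.0219) also fell. The count of members called lower was 3 without WT 1, without cKO 1 or without cKO 3, and 2 in the 4 libraries with Xist. Gabrb1 and Gabrg1 lost their calls without any one of WT 1, cKO 1 or cKO 3 (adjusted p up to 0.0771 and 0.0858). Glra2, with 63.0 FPKM in the mutant, thus stood above Gabra2 there, whereas in WT Glra2 (25.1 FPKM) stood below Gabra2.

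Chloride transport sets whether opening these channels depolarises a cell. The list read here holds genes of chloride transport and of pH. Of 19 genes analysed of 21, 0 rose, 2 fell and 17 did not pass, with a median log2 difference of 0.08. In the higher direction, 2 genes had an unadjusted limma p under 0.05 and limma-voom called 2, while without WT 2 or without cKO 2 limma called 1. Slc4a4, a sodium bicarbonate cotransporter, fell from 3.93 ± 0.663 to 1.84 ± 0.126 FPKM (limma adjusted p = 0.00123). Car2, a carbonic anhydrase, fell from 2.76 ± 0.168 to 1.57 ± 0.111 FPKM (adjusted p = 0.0023). The chloride exporter KCC2, Slc12a5, had 7.05 ± 1.14 FPKM in WT and 9.29 ± 1.11 in cKO (adjusted p = 0.0632), and the importer NKCC1, Slc12a2, had 14.0 ± 0.580 and 15.4 ± 0.372 FPKM (adjusted p = 0.174). Both transporters were named after their values were seen.

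Other receptors of the same Cys-loop family were mostly at low levels. Of 7 genes analysed of 18, 1 rose, 2 fell and 4 did not pass, with a median of -0.15. The nicotinic subunits Chrna7 (4.10 ± 0.260 to 2.23 ± 0.103 FPKM, limma adjusted p = 0.000705) and Chrna5 (2.33 ± 0.0971 to 1.15 ± 0.0740 FPKM, adjusted p = 0.000834) fell, and Chrna4 rose (3.65 ± 0.335 to 5.35 ± 0.668 FPKM, adjusted p = 0.0129). Glycine is also a co-agonist of NMDA receptors. Of 9 genes of those sites analysed of 11, 0 rose, 2 fell and 7 did not pass, with a median of 0.00, and 0 were higher at an unadjusted limma p under 0.05 or by limma-voom. Grin3a, whose product binds glycine, fell from 8.18 ± 1.76 to 4.21 ± 0.527 FPKM (limma adjusted p = 0.00338). Grin2c fell from 0.593 ± 0.0743 to 0.270 ± 0.0487 FPKM (adjusted p = 0.0093).

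Marker genes of cell types and regions were read beside the members, and their part in the members' values was not tested. Of 11 subplate and Cajal-Retzius markers, 5 rose and 0 fell. All 5 were subplate genes, and no Cajal-Retzius marker passed. They were Nxph4, Pappa2, Kcnab1 (2.52 ± 0.122 to 4.96 ± 0.342 FPKM), Cplx3 (0.698 ± 0.0593 to 3.11 ± 0.907 FPKM) and Ctgf (3.26 ± 0.319 to 7.19 ± 1.1 FPKM). The summed level of the list was 45.5 to 49.7 FPKM in WT and 60.1 to 69.6 FPKM in cKO. Of 12 projection neuron markers 1 rose and 4 fell, with Cux1 and Emx1 among those lower. Their sum was 750 to 798 FPKM in WT and 789 to 830 FPKM in cKO. At an unadjusted limma p under 0.05, 3 were higher and 5 lower, and limma-voom called 3 higher and 4 lower. Neurod6 contributed most to the sum and did not pass, at 296.3 ± 21.8 FPKM in WT and 351.5 ± 22.4 in cKO (limma adjusted p = 0.0507). The sum was not taken without it. Emx1 also drives Cre in the mutants, while the Cre status of WT was not stated. Its fall and an effect of the Cre allele cannot be told apart. Of 13 interneuron markers 0 rose and 4 fell (223 to 247 and 220 to 236 FPKM). Npy, named after its values were seen, contributed most to these sums and did not pass. It had 89.6 ± 18.0 FPKM in WT and 106 ± 4.28 in cKO (limma adjusted p = 0.158), and the sums were not taken without it. Of 14 radial glia and intermediate progenitor markers 4 rose and 1 fell. The fall was that of Fabp7 (454 ± 4.25 to 312 ± 47.5 FPKM), and the list summed to 626 to 642 FPKM in WT and 421 to 547 FPKM in cKO with it, and to 171 to 186 FPKM and 163 to 213 FPKM without it. Of 12 astrocyte and oligodendrocyte markers 0 rose and 7 fell (96.4 to 114 and 68.7 to 80.3 FPKM), and of 16 microglia and vascular markers 0 rose and 3 fell (109 to 118 and 88.0 to 101 FPKM). The glial, microglial and interneuron lists also had 0 genes higher at an unadjusted limma p under 0.05 and 0 called higher by limma-voom, and the subplate list had 0 lower by either. Without WT 2, 1 microglial and vascular gene was called higher, and without WT 3, 1 interneuron gene was. Counts for subplate genes were 5 higher and 0 lower without any one library. Projection neuron genes called lower numbered 1 and those called higher 0 without WT 1, cKO 2 or cKO 3, and 2 were called higher without WT 2 or cKO 1. Interneuron genes called lower numbered 2 without WT 1, WT 3, cKO 1 or cKO 2, and microglial and vascular genes called lower 1 without WT 1, WT 3 or cKO 1. Progenitor genes called higher numbered 2 without WT 1, WT 3, cKO 2 or cKO 3.

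Tissue next to the neocortex could add receptor transcripts if a dissection took it in, so its markers were read too. Striatal markers were 1 higher and 1 lower of 11, with summed levels of 29.3 to 31.6 FPKM in WT and 30.4 to 33.0 FPKM in cKO, and 3 were higher without WT 2 and 0 lower without cKO 1. Thalamic markers were 0 higher and 2 lower of 8 (28.4 to 30.2 and 22.7 to 26.1 FPKM, with 1 higher at an unadjusted limma p under 0.05 and 1 by limma-voom). The 2 were Prkcd (5.55 ± 0.338 to 3.37 ± 0.0461 FPKM) and Calb2, which was also counted among the interneuron markers that fell. The others, named after their values were seen, did not pass. Their means were lower in cKO for Slc17a6, Prox1 and Rora, and higher for Tcf7l2, Lhx9 and Plekhg1. The thalamic sums were not taken without Calb2 or Prkcd, and the amount of thalamic tissue was not tested. Hippocampal markers were 1 higher and 1 lower of 9, with sums of 71.8 to 82.5 FPKM in WT and 57.9 to 65.9 FPKM in cKO. The gene that fell was Nr4a3 (29.6 ± 3.48 to 9.37 ± 2.22 FPKM), without which the other 8 summed to 46.1 to 50.9 FPKM in WT and 50.7 to 54.3 FPKM in cKO. Limma-voom called 2 hippocampal markers higher and 1 lower, and 3 were higher and 2 lower at an unadjusted limma p under 0.05. No measured marker of these lists was at 0 in all libraries, which holds for every analysed gene (lowest mean over the 6 libraries 0.0272 FPKM). Markers of hindbrain and spinal cord, where glycine receptors are abundant, and Slc6a5, the transporter of glycine-releasing neurons, were not analysed here.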

How the data were processed

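The deposited table gives each gene's FPKM in each library, a unit computed by the authors. Per the submitters' processing notes, bcl2fastq 1.8.4, STAR 2.5.4b, featureCounts 1.6.1, R 3.4.1, DESeq2 1.22.1 and the build mm10 were used. How low genes were filtered, the strand setting and the annotation release: not given in the sources used here. There were 15703 genes, and 139 blank lines were left out.

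From these values, limma 3.58.1 (R 4.3.3; trend and robust empirical Bayes) was fitted to log2(FPKM + 1) over all genes, with genotype as the term and Benjamini-Hochberg adjustment, and a gene was called at an adjusted p under 0.05. The fit was tested on simulated data. Low genes change less on this scale than in FPKM, and ratios of means stand beside it. Other steps used scipy 1.17.1, numpy 2.4.6 and pandas 2.3.3 in Python 3.11.15.

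Reads were recovered as FPKM times exon length (GENCODE M21; 15655 genes matched) times the library size that made low values whole. Whole reads (to 0.1) were found for 94.8% to 96.0% of 1292 to 1506 low genes a library, and for 19.5% to 20.4% at a wrong size. The summed reads, 25.3 to 28.8 M, exceed the recovered sizes of 23.2 to 26.1 M and are approximate.

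The members and all lists were chosen with earlier results of these data known. Of 278 list genes, 222 were analysed. Genes were named by rule: the members; the 3 genes most alike in pattern (5 for Glra2); every called gene of a pathway list, or the 6 with the smallest p; the 2 most abundant where none was called; up to 3 called genes of a marker list; Tcf4, Xist and Ddx3y. Some genes taken by this rule are not reported here. Identity markers, neighbours within 500 kb and genes said to be named after their values were seen are additions. Sequences came from RefSeq (GRCm38.p6 promoters, 4 of 4 members matched) and the mm10 genome with GENCODE M21. Coding identity is from a global alignment. Alternatives were the pseudocount, a filter on low values, scaling, left-out libraries, the replicate number and sex terms, and, added after seeing the data, limma-voom on recovered reads and marker sums without Fabp7 or Nr4a3.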

Additional observations from a re-analysis of the deposited data

How the results depend on the processing

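No member changed direction under any alternative run. Leaving out each library in turn, the log2 difference ran from 1.26 to 1.31 for Glra2, 0.43 to 0.48 for Glra3, 0.08 to 0.22 for Glrb and -0.30 to -0.28 for Gphn. The size for Glra3 depended on the scale: 1.85 with a pseudocount of 0.1 and 3.19 with limma-voom on recovered reads (added after seeing the data), and it has no value among genes with a mean of at least 1 FPKM. Over the 4 libraries with Xist, the Glrb difference was 0.06.

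The calls over all genes, 1134 higher and 1349 lower, ranged from 544 to 1572 and from 830 to 1517 with 1 library left out, with 544 and 830 without WT 1, 566 and 830 without cKO 1 and 578 and 839 without cKO 2. The 4 libraries with Xist gave 369 higher and 624 lower, a fit with fewer samples. With limma-voom they were 1687 and 1367. Of the 57 called genes of the lists, 28 lost their call in those 4 libraries, 20 without WT 1, 7 with a sex term and 0 with trimmed-mean scaling.

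With the replicate number as a replicate block, 1274 genes were called higher and 1541 lower, and 3 of the 57 list genes lost their call. Libraries with the same number showed little shared deviation (r = -0.05, 0.10 and -0.05 across genes). For WT 1 and cKO 3, the libraries with Y-linked reads, r was 0.206. With 3 libraries in a group, these values cannot settle whether libraries of the same number share a batch. In the transport list, 1 gene passed with the block. The count tests edgeR and DESeq2 were not run, since the table holds FPKM. Depth limits Glra3 most, with 6 to 14 recovered reads in each control library.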
